A study of Mus musculus with 246 samples.

Results

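The 10 genes of MHC class I antigen presentation described here were H2-T22, H2-T23, H2-K1, H2-D1, H2-Q4, H2-Q10, H2-M3, B2m, Tap1 and Tapbp, of 56691 genes in the deposited count table. H2-T22 was chosen by its measured fold changes between the 3 conditions in mice without social interaction, and the other 9 because they belong to the same pathway. The condition differences of the no interaction mice are therefore given as a description, with no test. MHC class I molecules are cell surface heavy chains paired with beta-2 microglobulin that carry peptides from inside the cell to T cells and natural killer cells. Peptides enter the endoplasmic reticulum through the TAP transporter and are loaded with the help of tapasin, and interferons raise the transcription of the whole pathway. In the brain, class I transcripts are found in endothelium, microglia and neurons, and class I proteins are known for a part in the refinement of synapses.

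Bulk RNA sequencing was carried out on punches of 6 brain regions from 41 adult male CD1 mice, an outbred stock, 1 library per region and mouse. The regions were the medial prefrontal cortex with its infralimbic and prelimbic parts (PFC), the anterior cingulate cortex (ACC), the shell of the nucleus accumbens (Nacc), the basolateral amygdala (BLA), the dorsomedial thalamus (DMT) and the ventral hippocampus (HC). Ctrl_Vehicle mice were reared with standard bedding by dams given an empty slow-release gel, ELA_Vehicle mice with limited bedding and nesting material during early postnatal life (early life adversity, ELA) by dams given the same empty gel, and ELA_SAFit2 mice under the same adversity by dams given the gel with SAFit2, an inhibitor of the stress regulator FKBP51 that reached pups through milk. Brains were taken either without a social encounter (NoInteraction; 7, 7 and 7 mice in the order above) or after 10 min with an unfamiliar mouse (SocialInteraction; 6, 7 and 7 mice). Condition was assigned to whole litters, and since the labels give no litter, litter and condition cannot be told apart.

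The libraries held between 20804247 and 43351424 counts, with a median of 28844788. In the Nacc, 12 of 41 libraries, 2 in each group, resembled another mouse more than the mouse they were labelled with, by the correlation of 60 genes, none of them a class I gene, that separate mice in the other regions. Their correlation with the labelled mouse lay between -0.35 and 0.48, and that with the best matching mouse between 0.55 and 0.90. The other 5 regions held 0 such libraries, and the lowest correlation of a library with its own mouse was 0.86. Values averaged over a mouse therefore use the 5 regions without the Nacc unless stated otherwise. Some results that rest on the Nacc are also given without these 12 libraries. Counts summed over 6 regions include them unless stated otherwise. Regional markers were highest in the labelled region for the thalamus (Tcf7l2, 433 CPM, counts scaled to a common library size, in the DMT) and the striatum (Ppp1r1b, 1047 CPM in the Nacc). BLA libraries also held the choroid plexus marker Ttr at a mean of 1984 CPM and Ppp1r1b at 473 CPM, and the summed amygdala markers were highest in the BLA (median 968 CPM). Of these, Etv1, Lypd1 and Cyp26b1 were highest there, at means of 199, 585 and 153 CPM. Rspo2 was at 17.5 CPM in the BLA, against 39.6 CPM in the ACC and 27.2 CPM in the PFC. The summed hippocampal markers were highest in the HC (median 841 CPM, against 760 CPM in the Nacc and 565 CPM in the BLA), with Prox1 and Zbtb20 highest there at 240 and 531 CPM, while Spink8 and Wfs1 were at 4.63 and 69.8 CPM against 6.42 and 424 CPM in the BLA.

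Of the 10 genes, 9 lie on chromosome 17 and B2m lies on chromosome 2. The heavy chain genes are near-identical copies in part, and reads that fit several copies were divided between them by estimation. In H2-T22, 62.1% of all 31-base words of its coding transcripts also occurred in another gene, and 55.02% occurred in H2-T10, a neighbouring class I gene. The same share was 48.4% for H2-T23, 43.5% for H2-Q4, 27.7% for H2-D1, 20.3% for H2-K1 and 18.1% for H2-Q10, against 5.54% for Tapbp, 4.62% for H2-M3, 1.48% for Tap1 and 0% for B2m. Counts were not whole in 99.2% of libraries for H2-T22, 95.5% for H2-T23 and 99.6% for H2-D1, and in 0% for B2m. Levels of the heavy chains other than H2-M3 are thus uncertain as to which copy the reads came from. H2-T10 matched H2-T22 at 96.3% of 1137 aligned coding bases, and H2-T23 at 73.4% of 1006.

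The promoters of H2-T22 and H2-T23 are shown because these 2 genes separated the same mice into ranges, as described below. Both span the start site, with most bases before it, as given in RefSeq (GRCm38.p6), at chr17:36042693-36042992 and chr17:36032652-36032951, both on the minus strand. Capitals mark the core of the interferon-stimulated response element, GAAANNGAA, which lies on the other strand and begins at position -190 in H2-T22 and -123 in H2-T23 relative to the start site.
H2-T22 promoter: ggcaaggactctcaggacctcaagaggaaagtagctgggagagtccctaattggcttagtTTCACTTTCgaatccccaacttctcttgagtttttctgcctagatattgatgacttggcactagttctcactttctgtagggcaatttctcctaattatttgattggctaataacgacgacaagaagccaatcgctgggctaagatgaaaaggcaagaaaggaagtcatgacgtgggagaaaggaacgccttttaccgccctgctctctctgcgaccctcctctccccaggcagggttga
H2-T23 promoter: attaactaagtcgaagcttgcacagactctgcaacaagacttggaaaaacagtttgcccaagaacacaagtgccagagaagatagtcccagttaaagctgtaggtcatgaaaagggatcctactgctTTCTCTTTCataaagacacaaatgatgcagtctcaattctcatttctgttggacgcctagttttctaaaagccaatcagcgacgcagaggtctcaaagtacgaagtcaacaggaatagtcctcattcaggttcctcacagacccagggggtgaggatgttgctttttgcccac

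On either of 2 strands, GAAANNGAA occurred in the promoters of 3 of the 10 genes, H2-T22, H2-T23 and B2m, and in 8.56% of all 32851 promoters of this length. The enhancer A kappa B site, GGGGATTCC, occurred in H2-K1 and H2-D1 and in 0.25% of all promoters. The cAMP response element core, TGACGTCA, occurred in 0 of 10 and in 1.79% of all promoters. A match describes these letters in this window and is not a bound site.

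H2-T22 encodes a non-classical heavy chain that is recognised by a subset of gamma delta T cells. Its level fell into 3 separate ranges over mice. As the mean CPM of the 5 regions without the Nacc, 21 mice lay between 0.749 and 1.19, 17 mice between 7.25 and 8.32, and 3 mice between 13.3 and 15.4. The lowest mouse above the first gap was 6.08 times the highest mouse under it, and the step across the second gap was 1.60 times. Among the other 9 genes the largest step was 2.80 times, that of H2-T23 between the same 21 and 20 mice. These ranges were drawn from the measured values, so they describe the mice and are not groups of the study. In bulk tissue, fewer cells that express a gene and less RNA per cell cannot be told apart.

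Within each of the 5 regions the 21 lower mice did not overlap with the other 20. In the PFC the lower mice lay between 0.252 and 1.07 CPM and the middle mice between 7.13 and 9.46 CPM, and the 3 upper mice between 13.3 and 15.8 CPM. In the HC the same ranges were 0.610 to 1.33, 4.87 to 7.61 and 10.598 to 13.2 CPM. The Nacc broke this order, with lower mice reaching 8.95 CPM and an upper mouse at 1.86 CPM. Among Nacc libraries that matched their own mouse, however, 15 of lower mice lay between 1.74 and 2.61 CPM and 14 of other mice between 7.21 and 18.1 CPM. Of the 12 mismatched Nacc libraries, H2-T22 lay on the side of the labelled mouse in 8 and on the side of the best matching mouse in 11. The labelled and the best matching mouse were on different sides of the gap in 3 of the 12.

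**Figure D1:**
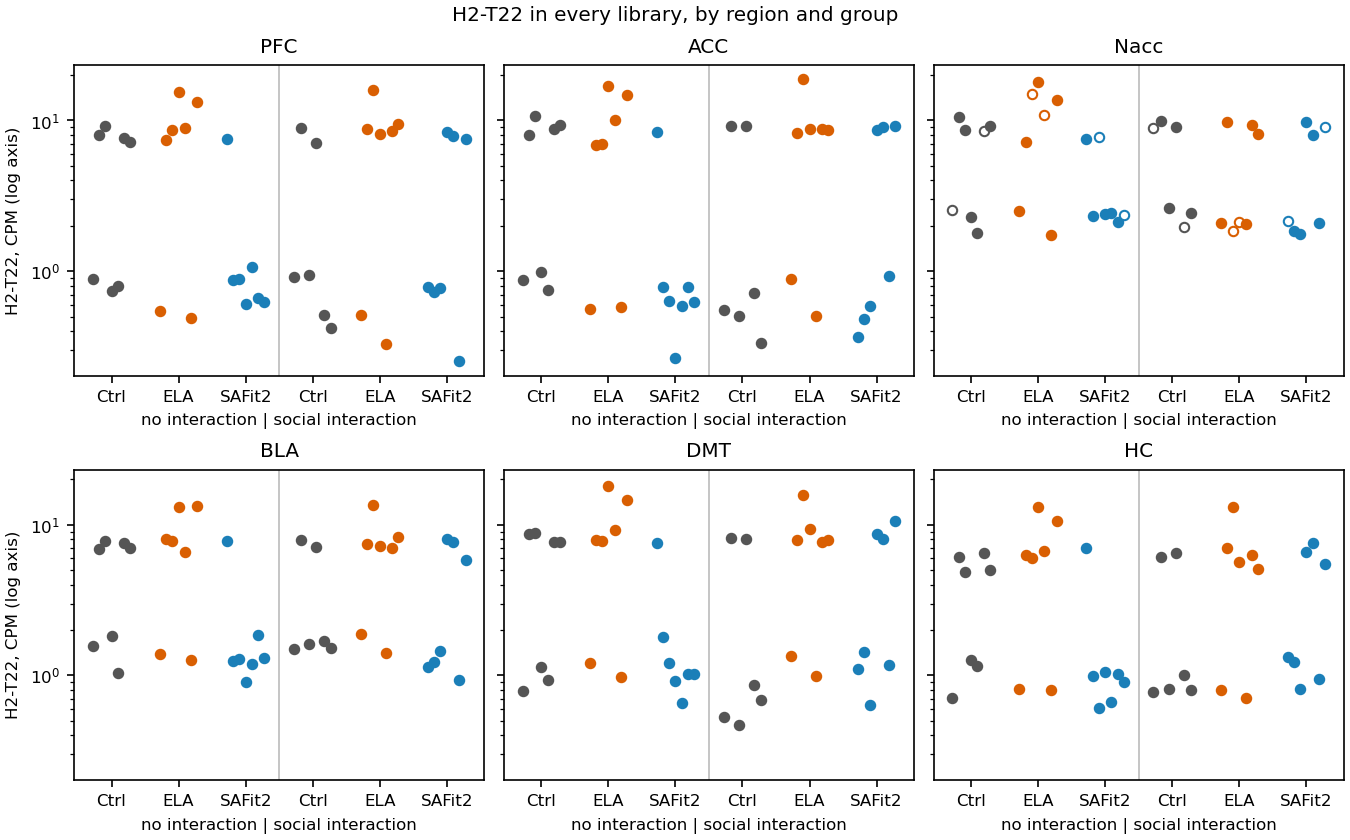
H2-T22 in every library as CPM on a log axis, 1 panel per region, with points for mice in the 3 conditions without (left) and with (right) social interaction. Outside the Nacc each panel shows an empty band between the 21 lower and the 20 other mice, for example between 1.07 and 7.13 CPM in the PFC.

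H2-T23 encodes a non-classical heavy chain that presents leader peptides of other class I proteins to natural killer cell receptors. It split the mice in the same way, from 0.974 to 1.55 CPM in the 21 lower mice, 4.35 to 6.60 CPM in the 17 middle mice and 9.08 to 9.73 CPM in the 3 upper mice. The lower mice did not overlap with the others in any of the 5 regions, and the narrowest gap was in the DMT, from 1.72 to 1.99 CPM. H2-T10, a neighbour of H2-T22 that the annotation types as a polymorphic pseudogene and that was chosen for description after its values were seen, ran the other way. It lay between 1.93 and 2.83 CPM in the 21 mice low in H2-T22, between 1.06 and 1.48 CPM in the 17 middle mice, and between 0.417 and 0.538 CPM in the 3 upper mice. Whether a mouse's reads were assigned to H2-T10 in place of H2-T22 was not tested.

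**Figure D2:**
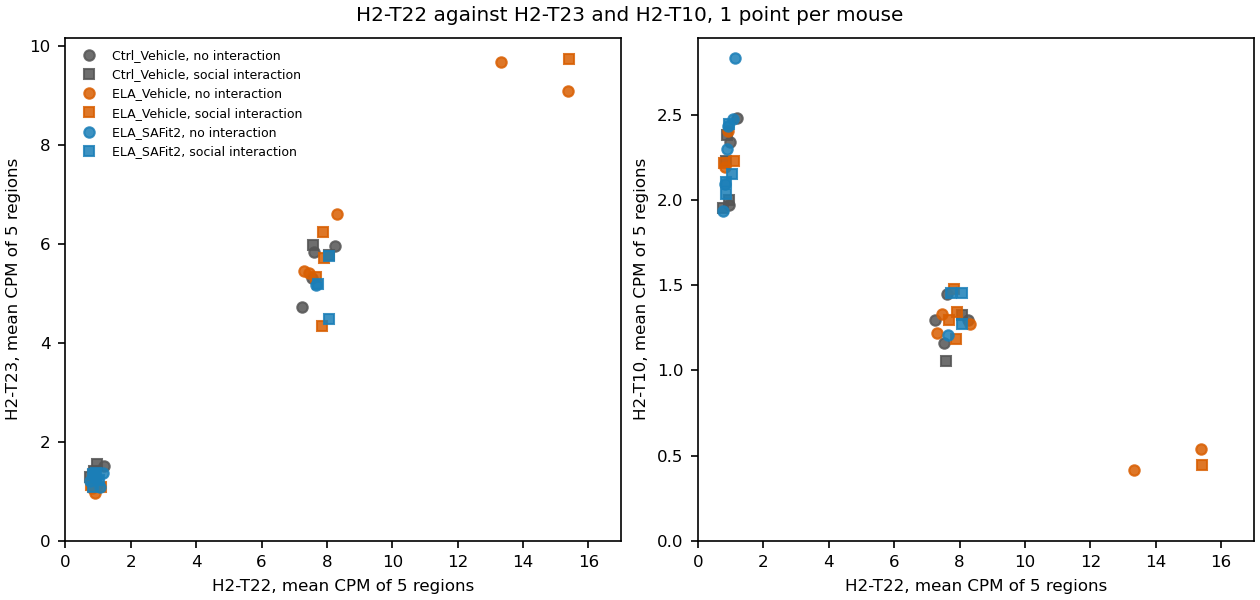
Mean CPM of 5 regions for each of 41 mice, H2-T22 on the horizontal axis against H2-T23 (left) and H2-T10 (right), coloured by condition with the marker shape giving the set. The points form 3 clusters, and the 3 mice above 13.3 CPM of H2-T22 have the highest H2-T23 and the lowest H2-T10.

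Mice of every group were found on both sides of the first gap. Of the no interaction mice, 4 of 7 Ctrl_Vehicle, 5 of 7 ELA_Vehicle and 1 of 7 ELA_SAFit2 mice lay above it. Of the social interaction mice, 2 of 6 Ctrl_Vehicle, 5 of 7 ELA_Vehicle and 3 of 7 ELA_SAFit2 mice lay above it. All 3 upper mice were ELA_Vehicle mice, 2 of them without and 1 with social interaction. Over both sets, 6 of 13 Ctrl_Vehicle, 10 of 14 ELA_Vehicle and 4 of 14 ELA_SAFit2 mice were above the gap. The no interaction part of these counts follows from the choice of H2-T22 and is a description.

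The ranges of the other genes overlapped between these mice. H2-D1, a classical heavy chain, lay between 21.9 and 52.1 CPM in the 21 lower mice, 19.7 and 35.3 CPM in the middle mice and 21.04 and 23.5 CPM in the upper mice, with medians of 36.9, 25.1 and 22.2 CPM. H2-Q10 had medians of 0.861, 0.676 and 0.46601 CPM in the same order. In the DMT the 3 upper mice (0.0662 to 0.125 CPM) lay just under every other mouse (0.133 CPM or more). At a median of 29798051 counts per DMT library these levels rest on few reads, and the ranges overlapped in the other regions. H2-K1, the other classical heavy chain, spanned 5.11 to 12.2, 6.05 to 11.5 and 8.29 to 11.6 CPM in the same mice. B2m, the light chain, spanned 26.1 to 33.4, 27.5 to 40.6 and 28.8 to 32.2 CPM. The ranges of the 5-region means overlapped for H2-Q4, H2-Q10, H2-M3, Tap1 and Tapbp as well. Summed markers of microglia, as the mean of 6 regions with the Nacc, lay between 208 and 237 CPM in the lower, 195 and 241 CPM in the middle and 211 and 223 CPM in the upper mice, and those of endothelium, over the same 6 regions, between 162 and 182, 148 and 181 and 166 and 182 CPM. The T cell markers Cd3e, Cd3d, Cd8a and Cd8b1 were at 0 in 121, 172, 188 and 197 of all libraries, and Cd3e had its highest mean, 0.0565 CPM, in the DMT.

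How far a gene's level followed the mouse was measured as the share of its variance that lay between mice, after the means of region, condition and set were removed. It was 0.887 for H2-T22 over 6 regions (percentile 99.9 of 17381 genes tested), 0.825 for H2-T23 (percentile 99.8) and 0.748 for H2-D1 (percentile 99.3). H2-Q4 followed with 0.448 and H2-K1 with 0.349, while Tap1 and B2m had 0.233 and 0.232. H2-Q10, H2-M3 and Tapbp had 0.215, 0.112 and 0.106. The median over all genes was 0.0873, so all 10 lay above it, with a median of 0.291. Without the Nacc the shares of H2-T22, H2-T23 and H2-D1 were 0.942, 0.864 and 0.858, and the medians were 0.367 for the 10 genes and 0.104 for all genes. H2-T22 was chosen on the no interaction mice, which are among these mice, so its share and percentile are a description. H2-T23 separated the same mice, so its values are not independent of that choice. Libraries of a mouse share its genotype, litter and handling, which cannot be told apart here.

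**Figure D3:**
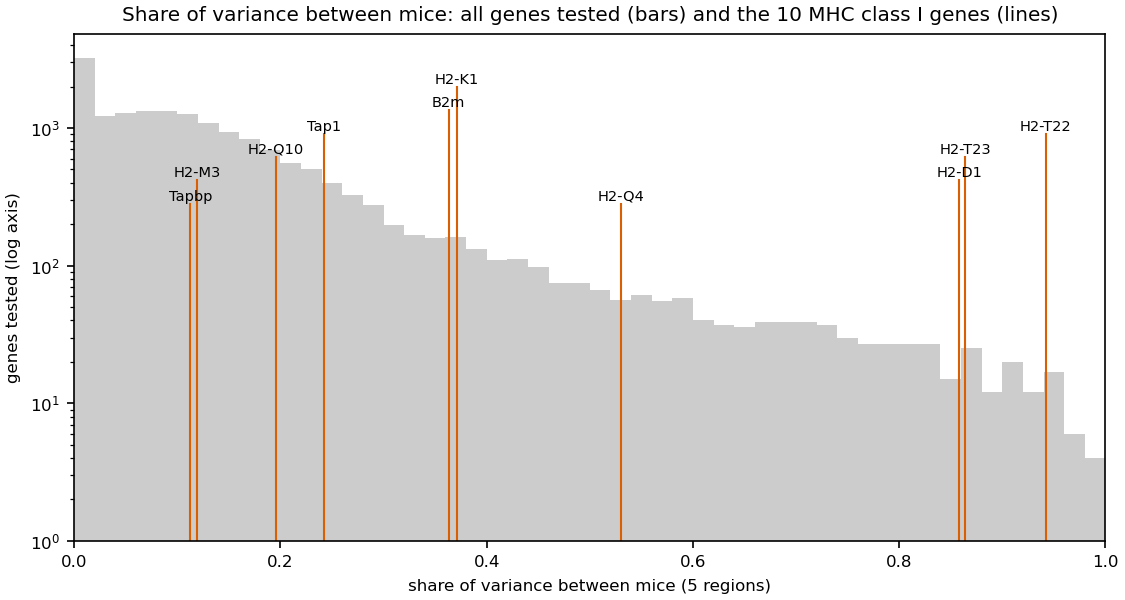
Number of genes (log axis) by the share of variance between mice over 5 regions, for all 17381 genes tested (bars), with lines for the 10 class I genes, whose heights only separate the names. H2-T22 (0.942), H2-T23 (0.864) and H2-D1 (0.858) stand in the far right tail, while Tapbp (0.113) and H2-M3 (0.119) lie close to the median of all genes (0.104).

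Of the genes tested, those most like H2-T22 over the 41 mouse means (Pearson's r of log2 CPM after group means were removed, given as a description) were H2-T23 (0.99), Gtf2h4 (0.86), a subunit of the general transcription factor TFIIH, and 2310061I04Rik (0.81). The most opposite was Gnl1 (-0.90), a GTP-binding protein gene. H2-T23 had the same neighbours, and Gnl1 was again the most opposite (-0.90). For H2-D1 they were Aif1 (0.92), a microglial gene, Lta (0.91), which encodes lymphotoxin alpha, and Ddx39b (0.86), an RNA helicase gene, and the most opposite was Gpank1 (-0.89). All of these lie on chromosome 17, which holds 4.94% of the genes tested. The points share the mouse, and these values say nothing of shared control. For B2m the nearest were Tgtp2 (0.73), H2-Q6 (0.73) and Irf7 (0.72), on 3 chromosomes, the first and the last of which are interferon-induced genes. The nearest genes of H2-K1, H2-Q4, H2-Q10, H2-M3, Tap1 and Tapbp reached 0.69, 0.72, 0.71, 0.69, 0.69 and 0.75.

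Relations between members were computed over the log2 of mouse means of the 5 regions, with the means of condition and set left in. The permutations treated all mice as exchangeable, and litters are not in the labels. Since H2-T22 and H2-T23 fall into clusters, their relations were computed within the 21 lower and the 17 middle mice and not over all mice. Of 62 relations in all, 11 had permutation p-values under the threshold after Benjamini-Hochberg adjustment for both Pearson's r and Spearman's rho and after the 2 mice farthest from the median were left out, and all 11 were positive. The largest was that of H2-D1 with H2-Q4 (r = 0.73, rho = 0.75, n = 41, permutation p = 1e-05 for each, the smallest that 100000 permutations can give, adjusted p = 0.00062; r = 0.68 without 2 mice). H2-K1 was correlated with Tapbp (r = 0.62, rho = 0.58, permutation p = 2e-05 and 0.00013, adjusted p = 0.00062 and 0.00403; r = 0.56 without 2 mice). B2m was correlated with Tap1 (r = 0.50, rho = 0.53, permutation p = 0.00059 and 0.00048, adjusted p = 0.00915 and 0.00893; r = 0.46 without 2 mice). The other 6 over all mice linked H2-K1 to H2-Q4 (r = 0.52), B2m (0.45) and H2-D1 (0.45), H2-Q4 to B2m (0.48) and H2-Q10 (0.44), and H2-D1 to H2-Q10 (0.40). In the 21 lower mice, H2-T23 was correlated with H2-Q4 (r = 0.64) and H2-K1 (r = 0.57), and 0 of 17 relations met the criteria in the middle mice. H2-T22 and H2-T23 themselves did not meet the criteria within either range. Their r was 0.16 in the lower mice (permutation p = 0.48) and 0.34 in the middle mice (permutation p = 0.19). Their r of 0.99 over all 41 mice thus spans the steps between the ranges.

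The 10 genes were then compared between regions, a contrast that played no part in their choice, with edgeR's quasi-likelihood test over all libraries and Benjamini-Hochberg adjustment over all genes. Of the 10 genes, 9 differed between the 6 regions by the F test (97% of all genes did), the exception being H2-T22 (adjusted p = 0.37). Of 150 gene and region pairs, 98 were called, or 65.3%, against a background of 75.3% of all pairs. With the mouse as a block, 114 were called against a background of 76.7%, and all 10 genes differed by the F test. The gain was largest for H2-T22, from 1 to 8 of 15 pairs (adjusted p of the F test 9.22e-15 with the block). The block without the 12 mismatched Nacc libraries, a fit chosen after seeing the data, called 118 pairs of the 10 genes and 9 of H2-T22. The median absolute log2 difference over pairs was 0.31 for the 10 genes and 0.24 for all genes.

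H2-T22 had mean levels from 3.93 ± 3.54 CPM (SD, n = 41) in the HC to 5.96 ± 4.36 CPM in the Nacc and an SD close to the mean throughout. Its 1 call without the block was the HC against the Nacc (log2 difference -0.68, SE 0.30, edgeR adjusted p = 0.031), and it was lost without the 12 mismatched Nacc libraries (adjusted p = 0.061). Under the block the Nacc was above the ACC, next in the order of means (log2 difference 0.82, adjusted p = 1.54e-10, and 0.71, adjusted p = 1.60e-11, without the 12 mismatched Nacc libraries), and the BLA was above the HC (0.40, adjusted p = 0.0018), while the ACC and DMT did not differ (adjusted p = 0.29). The step from ACC to Nacc was not shared by all mice. With all libraries, medians in the Nacc and ACC were 2.28 and 0.589 CPM in the lower mice. They were 9.02 and 8.76 CPM in the middle mice and 13.7 and 16.9 CPM in the upper mice. H2-T10, whose coding sequence is close to that of H2-T22, had Nacc and ACC medians of 5.23 and 1.35 CPM in the lower mice. Its medians were 3.18 and 0.948 CPM in the middle mice and 1.70 and 0.4495 CPM in the upper mice. Whether reads of H2-T10 assigned to H2-T22 had a part in this step was not tested. H2-T23 had its highest mean in the ACC at 6.18 ± 5.49 CPM, followed by the PFC at 4.51 ± 3.78 CPM, and its lowest in the HC at 1.92 ± 1.15 CPM (HC minus ACC -1.62, SE 0.22, edgeR adjusted p = 8.86e-12). The ACC and PFC differed in H2-T23 only with the block (adjusted p = 0.078 without and 2.48e-04 with it), and the PFC and Nacc, and the DMT and HC, in neither fit.

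Among the classical heavy chains, H2-D1 ran from 28.2 ± 8.66 CPM in the BLA to 38.5 ± 10.48 CPM in the DMT (log2 difference 0.43, SE 0.08, edgeR adjusted p = 9.78e-07). The DMT exceeded the Nacc, next in order, but the Nacc, ACC, HC, PFC and BLA did not differ from their neighbours in that order. H2-K1 ran from 7.67 ± 1.41 CPM in the ACC to 10.496 ± 3.68 CPM in the BLA (0.48, SE 0.08, adjusted p = 2.32e-09), and the BLA and DMT were the only neighbours in order that differed without the block. The order of the regions was thus not shared by these 2 genes, with the BLA highest in H2-K1 and lowest in H2-D1. H2-K1 ranged from 4.28 to 18.8 CPM in the BLA. Summed choroid plexus markers there had a median of 2410 CPM (7.11 to 5160), against medians of 3.16 to 22.2 CPM elsewhere. Those of meningeal fibroblasts had a median of 232 CPM in the BLA against 43.9 to 104 CPM elsewhere. Their part in these differences was not tested.

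Of the other non-classical heavy chains, H2-Q10, a secreted form known from liver, had the widest span. It ran from 1.29 ± 0.441 CPM in the ACC to 0.257 ± 0.169 CPM in the HC (log2 difference -2.31, SE 0.18, edgeR adjusted p = 8.25e-29), and it was at 0 in 4 libraries. Only its lowest neighbours, the Nacc and HC, did not differ (adjusted p = 0.079). H2-M3, which presents formylated peptides, was highest in the DMT at 2.10 ± 0.381 CPM and lowest in the HC at 0.861 ± 0.224 CPM (-1.27, SE 0.08, adjusted p = 6.78e-42). H2-Q4 moved little, from 2.47 ± 0.815 CPM in the ACC to 3.17 ± 0.786 CPM in the DMT (0.37, SE 0.09, adjusted p = 3.04e-05), and none of its neighbours in order differed without the block.

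B2m, the light chain, was highest in the HC at 35.9 ± 4.03 CPM and lowest in the DMT at 25.3 ± 3.16 CPM (log2 difference 0.51, SE 0.04, edgeR adjusted p = 1.16e-28). Tap1, a subunit of the peptide transporter, had the same extremes, at 3.94 ± 0.731 CPM in the HC and 1.87 ± 0.484 CPM in the DMT (1.08, SE 0.07, adjusted p = 4.36e-36), and its PFC, Nacc, ACC and DMT levels did not differ from neighbour to neighbour. Tapbp, which encodes tapasin, had its highest means in the ACC at 25.5 ± 2.16 CPM and the BLA at 25.4 CPM, which did not differ (adjusted p = 0.57), and its lowest in the DMT at 17.4 ± 2.87 CPM (DMT minus BLA -0.57, SE 0.03, adjusted p = 6.94e-47). The DMT thus had the lowest mean of B2m, Tap1 and Tapbp and the highest mean of H2-D1, H2-Q4 and H2-M3, although it did not differ from the next region for B2m, Tap1 and H2-Q4. Summed microglial markers had a median of 171 CPM in the DMT against 217 to 244 CPM in the other 5 regions, and summed endothelial markers 212 CPM against 146 to 175 CPM. Their part in these regional differences was not tested.

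**Figure D4:**
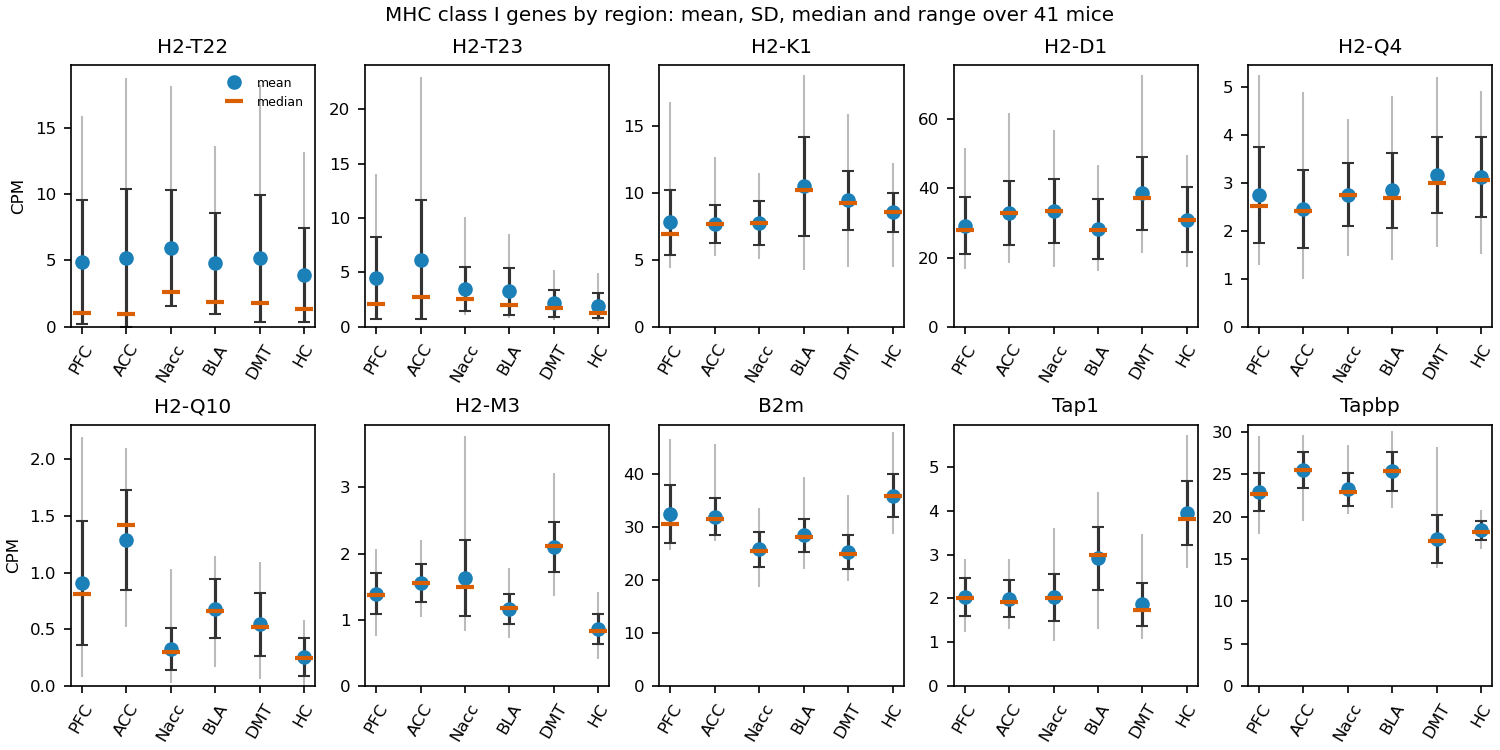
CPM of each of the 10 genes in 6 regions over 41 mice, with points for the mean, bars for the SD, dashes for the median and thin lines for the range. H2-T22 has SDs close to its means and medians far under them, and the spread of H2-T23 is widest in the ACC and PFC, while Tapbp and B2m have narrow spreads and clear regional steps, such as 17.4 CPM in the DMT against 25.5 CPM in the ACC for Tapbp.

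In the no interaction mice the condition differences of H2-T22 were large and spread over each group, as the choice of the gene implies. Its mean of 5 regions ran from 0.934 to 8.26 CPM in Ctrl_Vehicle mice (median 7.25), 0.819 to 15.4 CPM in ELA_Vehicle mice (median 7.45) and 0.749 to 7.65 CPM in ELA_SAFit2 mice (median 0.926). All 3 groups overlapped, and the ELA_SAFit2 group held 6 lower mice and 1 middle mouse. On counts summed over the 6 regions, the fitted log2 fold change was 0.66 for ELA_Vehicle minus Ctrl_Vehicle, -1.83 for ELA_SAFit2 minus ELA_Vehicle and -1.17 for ELA_SAFit2 minus Ctrl_Vehicle. H2-T23 gave 0.54, -1.44 and -0.90 for the same contrasts.

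Signs in the no interaction mice were the same in each of 6 regions for these 2 genes, from 0.54 to 0.78 for H2-T22 and 0.36 to 0.67 for H2-T23 in the first contrast. In the Nacc without the mismatched libraries, H2-T22 went from 0.68 to 0.43 for ELA_Vehicle minus Ctrl_Vehicle and from -0.69 to -0.94 for ELA_SAFit2 minus Ctrl_Vehicle, and was -1.37 with and without them for ELA_SAFit2 minus ELA_Vehicle. The regions come from the same mice and do not add to their number. H2-D1, H2-Q4 and H2-Q10 had the opposite signs on summed counts, -0.28, -0.32 and -0.60 for ELA_Vehicle minus Ctrl_Vehicle and 0.29, 0.30 and 0.55 for ELA_SAFit2 minus ELA_Vehicle. For H2-K1, H2-M3, B2m, Tap1 and Tapbp the fitted values of these 2 contrasts lay between -0.15 and 0.10. The 2 contrasts share the ELA_Vehicle mice, so opposite signs in them are not independent.

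The social interaction mice were not part of the rule that chose the genes, although the direction of H2-T22 in them was known by then, and here the 3 contrasts were tested. Of the 180 tests of the 10 genes in single regions, 0 were called by edgeR at an adjusted p under 0.05, against a background of 0.000365% (1 of 273834), and 11 had an unadjusted p under 0.05, against 10652 of all tests (3.89%). Of the 30 tests on counts summed over regions, 0 were called, against a background of 0.0%, and 2 had an unadjusted p under 0.05, against 2347 of 50562 (4.64%). DESeq2 called 0 of the 10 genes in either.

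H2-T22 in the social interaction mice ran from 0.751 to 8.07 CPM in Ctrl_Vehicle (median 0.914), 0.790 to 15.4 CPM in ELA_Vehicle (median 7.84) and 0.849 to 8.07 CPM in ELA_SAFit2 mice (median 1.02). The groups overlapped, and the ELA_Vehicle range reached above the highest mouse of the other groups. On summed counts ELA_Vehicle minus Ctrl_Vehicle was 0.85 (SE 0.71, 95% interval -0.53 to 2.24, edgeR adjusted p = 0.949), ELA_SAFit2 minus ELA_Vehicle -0.67 (SE 0.67, -1.99 to 0.64, adjusted p = 0.991) and ELA_SAFit2 minus Ctrl_Vehicle 0.18 (SE 0.70, -1.20 to 1.56, adjusted p = 0.9998). Two-sided exact permutation tests gave p = 0.274, 0.265 and 0.949. They compared mean log2 CPM of counts summed over all regions, mismatched Nacc libraries included, as did those of H2-T23 below. The medians and ranges above leave the Nacc out. In the Nacc, ELA_Vehicle mice 59 and 61 were at 1.86 and 2.13 CPM and Ctrl_Vehicle mouse 17 at 8.95 CPM. These values lower the ELA_Vehicle minus Ctrl_Vehicle difference. The other mismatched libraries of this set lay on the side of their labelled mouse. The estimates, intervals and p-values of H2-T22 above thus hold for sums that include these libraries. Neither a permutation test nor a fitted difference of H2-T22 without the Nacc is given for these mice. The intervals are wide enough to hold both 0 and differences of the size seen in the no interaction mice in the 3 contrasts, and the difference between the 2 sets was not tested.

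H2-T23 had fitted log2 fold changes of 0.52 (SE 0.51), -0.54 (SE 0.49) and -0.01 (SE 0.51) in the same 3 contrasts, with exact permutation p-values of 0.385, 0.365 and 0.836. With each mouse left out in turn, the first 2 of these ran between 0.32 and 0.83 and between -0.76 and -0.34, and those of H2-T22 between 0.61 and 1.28 and between -0.94 and -0.43, with 0 calls. H2-D1 gave the smallest unadjusted edgeR p of the 10 genes on summed counts, with 38.5 CPM as the median of Ctrl_Vehicle and 22.7 CPM as that of ELA_Vehicle mice and a fitted difference of -0.40 (SE 0.18, 95% interval -0.76 to -0.05, edgeR adjusted p = 0.940, exact permutation p = 0.0524). The 2 groups overlapped, from 22.98 to 47.3 CPM and from 21.04 to 38.6 CPM. H2-K1 gave -0.26 (SE 0.12, adjusted p = 0.940, exact permutation p = 0.0408) in the same contrast. Tapbp gave -0.04 (SE 0.03, adjusted p = 0.940, exact permutation p = 0.0221), and these were the smallest of 30 permutation p-values, none of which was adjusted. B2m lay between -0.02 and 0.00 in the 3 contrasts, and its 95% intervals ran from -0.12 at the lowest to 0.10 at the highest.

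**Figure D5:**
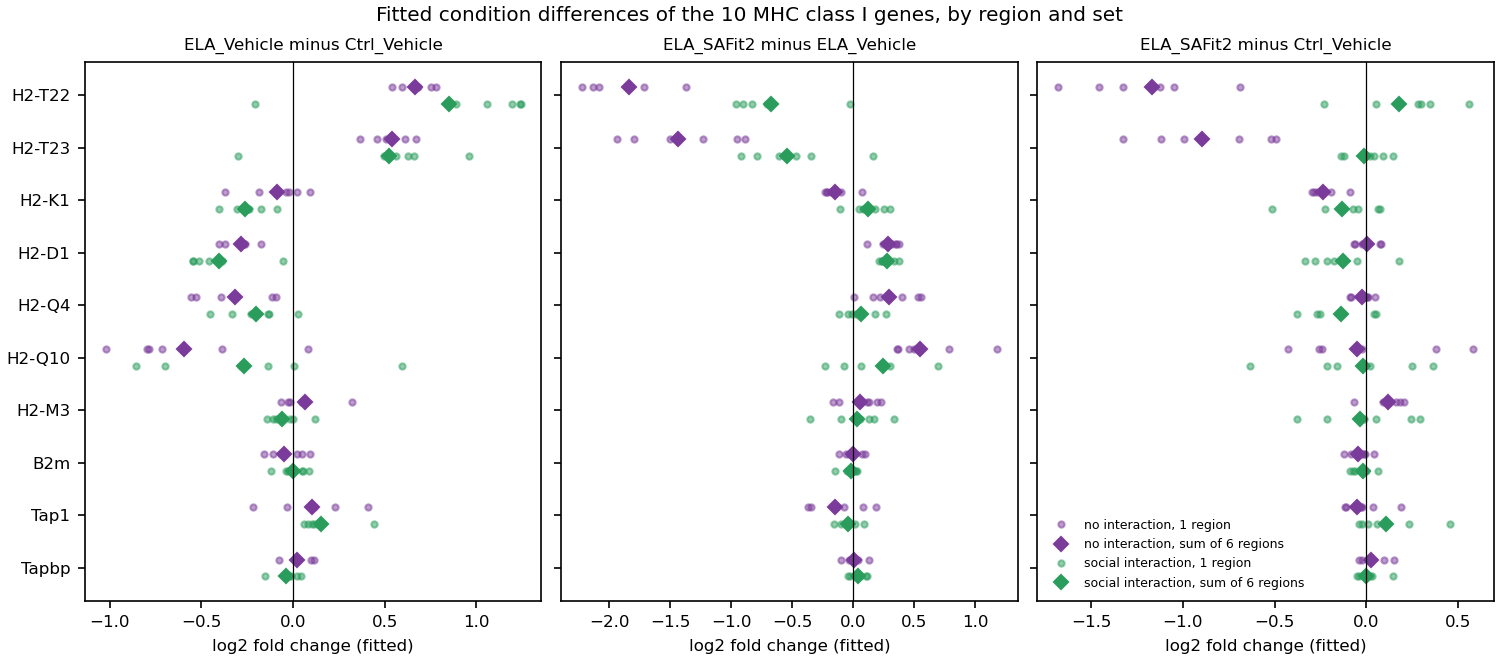
Fitted log2 fold changes of the 10 genes in the 3 condition contrasts, with dots for single regions and diamonds for counts summed over 6 regions, for the no interaction and the social interaction set. H2-T22 and H2-T23 spread farthest from 0, as at -1.83 and -1.44 in the no interaction set for ELA_SAFit2 minus ELA_Vehicle, while B2m, Tapbp and H2-M3 stay close to 0 on summed counts.

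Social interaction itself was compared with no interaction over all 41 mice, with condition as a covariate. In the PFC, the median of Tap1 was 2.34, 1.71 and 2.15 CPM in Ctrl_Vehicle, ELA_Vehicle and ELA_SAFit2 mice without interaction and 1.66, 1.84 and 2.01 CPM with it. Over the 3 conditions Tap1 fell (log2 fold change -0.28, SE 0.09, edgeR adjusted p = 0.045). It was the 1 of 10 genes called there, against a background of 7.6% of genes, and the ranges of the 2 sets overlapped in each condition. The call was lost when genes with low counts were kept in the test (adjusted p = 0.058). In the other 5 regions 0 of the 10 genes were called by edgeR, against a background of 1.82%, and of all 60 regional tests 4 had an unadjusted p under 0.05 against 13.3% of all genes' tests. DESeq2 called 1 of the 10 in the PFC and 0 in the other regions.

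On summed counts 0 of the 10 genes were called by edgeR, against a background of 9.21%, and 2 had an unadjusted p under 0.05, Tap1 (-0.13, SE 0.06, adjusted p = 0.165) and Tapbp (-0.06, SE 0.02, adjusted p = 0.065). Tapbp was called by DESeq2 (adjusted p = 0.047) and without the Nacc (adjusted p = 0.034). H2-T22 and H2-T23 differed by 0.04 (SE 0.40) and -0.03 (SE 0.30) between the sets. The log2 fold changes of Tap1, Tapbp, H2-K1 and H2-Q4 were under 0 in 6 of 6 regions. The regions come from the same mice, so these signs are not independent, and the share of all genes with equal signs is not given. H2-K1 and H2-Q4 had an unadjusted edgeR p under 0.05 in none of the regions.

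Other genes of the pathway were read from 2 lists, 25 genes of peptide processing, loading and class I regulation and 22 further class I and class I-like genes. In the social interaction contrast on summed counts, 3 of the 25 rose and 1 fell, beside the background of 9.21% of all genes. Pdia3 and Calr, chaperones of the peptide loading complex that serve many other proteins, rose (0.18, SE 0.03, edgeR adjusted p = 4.11e-04, and 0.25, SE 0.05, adjusted p = 0.0011), and both were also called in the PFC, ACC, BLA, DMT and HC. Rfx5, a transcription factor of MHC genes, fell by 0.08 on the log2 scale (SE 0.02, adjusted p = 0.0033). Of the 22 class I genes 11 were tested, and 1 rose, a share near that background, H2-T24 (0.16, SE 0.04, adjusted p = 0.018). In the condition contrasts of the social interaction mice on summed counts, edgeR called 0 of the 25 and 0 of the 11. For ELA_Vehicle minus Ctrl_Vehicle, 2 and 0 of them had an unadjusted p under 0.05, against 846 of all 16854 genes, Tap2 (0.30, SE 0.13) and Psmb10 (-0.09, SE 0.04). Between regions, 258 of 375 pairs of the first list (68.8%) and 96 of 165 of the second (58.2%) were called, beside the background of 75.3%.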

How the data were processed

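Poly-A selected stranded libraries were sequenced for 6 regions of 41 mice. The authors deposited 1 table of estimated counts per gene, named for salmon; the submitters' processing notes list STAR, DESeq2 and the builds GRCm39 and mm39, with no role or version given in the sources used here. All columns were matched to samples by their labels. Estimated counts were rounded and tested for protein-coding genes whose counts summed to 100 or more and were above 0 in 6 or more libraries of the fit. edgeR 4.0.16 in R 4.3.3 (TMM, quasi-likelihood test, Benjamini-Hochberg adjustment over all genes, threshold 0.05) was the test, and DESeq2 1.42.0, RLE size factors, no filter, other sample sets and leaving out each mouse were alternatives. The code was tested on simulated data. CPM used TMM over all libraries, and log2 CPM a prior count of 2. Permutation tests used SciPy 1.17.1.

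The region fits had condition and set as covariates. All 6 regions come from the same mouse by the labels, and libraries outside the Nacc resembled their own mouse best, so regions are paired by mouse. With the mouse as a replicate block, 114 gene and region pairs of the 10 genes were called, against 98 without it. Shared words and identities between coding sequences were computed on GENCODE M21 transcripts, and promoters are those of RefSeq on GRCm38.p6, not the build of the counts. An aligned coding stretch is not reported here. All 10 genes, 22 further class I genes and 25 pathway genes were named as lists, with at most 3 genes per list and comparison, by smallest p, plus the 3 nearest genes of each member by r; H2-T10, Gnl1, Gpank1 and genes described beside them were chosen after their values were seen. The 10 genes and the lists were chosen with earlier results of these data known. Mouse is the replicate, and litters are not in the labels. Median counts per library were lowest for H2-Q10 (16.0) and H2-M3 (40), so counting error weighs most there.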

Additional observations from a re-analysis of the deposited data

Results flagged for a closer look

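Mouse means of 5 regions were examined for a single mouse far from the others of its group, for 10 genes in 6 groups, and 3 of 60 combinations stood out, where chance flags about 1 in 20 groups. H2-T22 in mouse 7 of the ELA_SAFit2 mice without interaction was 7.65 CPM, against 0.749 to 1.14 CPM in the other mice of its group. Mouse 7 lay within the range of the 17 middle mice, 7.25 to 8.32 CPM. The no interaction values of H2-T22 also chose the gene, so this flag is a description. H2-T23 in the same mouse was 5.17 CPM, against 1.09 to 1.37 CPM. H2-T22 and H2-T23 separated the same mice, so their flags are not independent. The chance rate does not hold for these genes, whose values fall into clusters. Tapbp in mouse 15 of the same group was 26.4 CPM, against 20.8 to 22.6 CPM.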

How the results depend on the processing

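In the social interaction mice, the count of all genes called in single regions was 1, 0 with no filter on low counts and 70 with DESeq2, and on summed counts it was 0, 54 with DESeq2 and 0 to 2 when each mouse was left out. The 10 genes had 0 calls in each of these. For social interaction against no interaction, the 1 call of the 10 genes in single regions became 0 with no filter, and the 0 calls on summed counts became 1 with DESeq2 and 1 in 5 regions without the Nacc. Between regions, the mouse as a replicate block gave 114 calls in place of 98, 199868 in place of 196213 over all genes, and 10 in place of 9 F tests. The other comparisons have 1 value per mouse and take no such block. H2-T22 had 8 calls with the block, 0 without block and mismatched Nacc libraries, and 9 with the block and without these libraries (chosen after seeing the data).

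Signs turned in several contrasts, and not only where values were near 0. For H2-T22, ELA_SAFit2 minus Ctrl_Vehicle turned in 6 of 13 fits with a mouse left out. For B2m, ELA_Vehicle minus Ctrl_Vehicle went from 0.001511 to -0.0001884 with no filter and -0.0007051 in 1 fit of 6 groups. For Tapbp, ELA_SAFit2 minus Ctrl_Vehicle went from 0.0005207 to -0.001178 in 1 fit of 6 groups and -0.003895 without the Nacc. For H2-T23 without the Nacc it went from -0.01443 to 0.001488, and social interaction minus no interaction from -0.02862 to 0.02253. Leaving out each mouse, ELA_SAFit2 minus Ctrl_Vehicle ran from -0.06364 to 0.008064 for B2m, -0.07547 to 0.02245 for H2-M3, -0.13 to 0.08023 for H2-Q10, -0.08727 to 0.6123 for H2-T22, -0.2408 to 0.2968 for H2-T23 and -0.01358 to 0.01874 for Tapbp. ELA_SAFit2 minus ELA_Vehicle ran from -0.03335 to 0.008292 for B2m, -0.00893 to 0.05838 for H2-M3, -0.0377 to 0.129 for H2-Q4 and -0.09012 to 0.002599 for Tap1, and ELA_Vehicle minus Ctrl_Vehicle from -0.04438 to 0.02745 for B2m. None of these passed the threshold, and the cause was not tested.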
